A study of Mus musculus with 3 samples.

Results

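The miR-181 family was measured in HL-1 cells, a contracting mouse cardiac muscle line derived from an atrial tumour. Its members were the 6 mouse hairpins Mir181a-1, Mir181a-2, Mir181b-1, Mir181b-2, Mir181c and Mir181d, out of 1577 miRNA hairpins searched. Reads were assigned to them as inserts of 18 to 25 nt that matched a hairpin exactly or with up to 2 untemplated bases at the 3′ end. The 6 hairpins gave 10 mature arms, of which 7 had at least 50 reads summed over the libraries and 3 had fewer. These arms took 9149 of 5177367 miRNA reads in the first library below, siSrf1, and 9349 of 4481207 in the other, siSrf2.

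The study transfected HL-1 cells with siRNA and sequenced small RNA from total RNA harvested after 48 h. All groups received 9 µl of a 20 µM siRNA stock per well, with a lipid transfection reagent. The 3 samples are titled siNon (an unspecific siRNA), siSrf1 and siSrf2 (a pair of siRNAs against Srf). Srf encodes serum response factor, which drives transcription of muscle and growth genes. Values of siNon were not analysed here. A second label names the siRNA of each sample and conflicts with the title: it reads Srf si2 for siSrf1, and siNon for siSrf2. Titles define the groups here, so each direction below refers to the library labelled siSrf1 or siSrf2. Each group was 1 library of 1 cell line, which gives no replicate check and no p-value. All intervals are exact 95% intervals for counting error only, since the reads carry no molecular identifiers and copies of 1 molecule count more than once. The Srf mRNA was not measured by this assay. Inserts of 18 to 25 nt that matched the Srf transcript exactly numbered 20 sense and 16 antisense in the library labelled siSrf1, and 1053 sense and 177 antisense in the library labelled siSrf2.

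A miRNA hairpin is cut into a duplex, and either arm, named 5p or 3p, can be loaded into an Argonaute protein. The loaded arm pairs with target mRNAs mainly through its seed, bases 2 to 8. miR-181 is known as a family of vertebrates that share 1 seed on the 5p arm; it tunes the sensitivity of the T cell receptor in thymocytes, rises during differentiation of myoblasts, and in the heart miR-181c is known to act on a transcript of the mitochondrial genome.

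The mature sequences are shown because the members differ by few bases, and those bases decide which reads can be told apart. They are RefSeq's (GRCm38.p6), written 5′ to 3′ with the seed in capitals, and all 10 arms matched an entry.
miR-181a-5p: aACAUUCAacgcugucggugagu
miR-181b-5p: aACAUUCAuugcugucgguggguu
miR-181c-5p: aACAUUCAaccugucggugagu
miR-181d-5p: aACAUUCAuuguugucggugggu
miR-181a-1-3p: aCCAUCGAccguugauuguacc
miR-181a-2-3p: aCCACCGAccguugacuguacc
miR-181b-1-3p: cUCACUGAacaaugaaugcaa
miR-181b-2-3p: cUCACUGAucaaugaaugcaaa
miR-181c-3p: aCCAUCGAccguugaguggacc
miR-181d-3p: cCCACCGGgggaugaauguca

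The 4 different 5p arms share the seed ACAUUCA, and no other of 1679 mature miRNAs in the table has it. The 6 3p arms carry 4 seeds: miR-181a-1-3p and miR-181c-3p share CCAUCGA, the miR-181b 3p arms share UCACUGA, and miR-181a-2-3p (CCACCGA) and miR-181d-3p (CCACCGG) stand alone. Positions are counted from 1 at the 5′ end of the first-named miRNA. miR-181b-5p differs from miR-181a-5p by A9U, C10U and A21G over 23 nt. miR-181d-5p differs from miR-181b-5p by C12U alone. miR-181c-5p is miR-181a-5p with the base at position 11 deleted. miR-181a-2-3p differs from miR-181a-1-3p by U5C, which lies in the seed, and U16C.

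The hairpins lie in 3 pairs (NCBIM37, GENCODE vM1 annotation). Mir181a-1 (chr1:139863032-139863118, plus strand) and Mir181b-1 (chr1:139863216-139863295, plus) are separated by 97 bp and lie outside other annotated genes. Mir181a-2 (chr2:38708255-38708330, plus) and Mir181b-2 (chr2:38709350-38709438, plus) are separated by 1019 bp within Nr6a1, the gene of an orphan nuclear receptor, which is transcribed from the minus strand and has no exon there. Mir181d (chr8:86702615-86702686, minus) and Mir181c (chr8:86702762-86702867, minus) are separated by 75 bp, with Nanos3 as the nearest coding gene, 2164 and 2311 bp away. The first 18 nt of miR-181a-5p and of miR-181b-5p each match 2 places in the genome, their own copies, so 5p reads of these copies cannot be told apart. No insert counted for the family matched a hairpin outside it.

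The reads did not all carry the mouse reference bases, and this bears on every result below. In the first 18 nt of miR-181a-2-3p, the C6U form had 201 reads against 98 of the reference form in the library labelled siSrf1, and 128 against 146 in the library labelled siSrf2. Its share was thus 67.2% (61.6 to 72.5) and 46.7% (40.7 to 52.8), and the intervals lie apart. The highest of the other 47 substitutions at positions 2 to 17 had 7 and 3 reads. Over 251 arms looked at in the same way, the most frequent substituted form held a median of 2.03% of reads and at least 20% in 10 arms, with miR-181a-2-3p in place 6. In 5 of those arms the pattern was the same: the substituted share was 90.7% and 67.9% for miR-330-3p (G11C), 83.0% and 52.7% for miR-17-3p (G11A), 72.7% and 56.1% for miR-28-3p (G17C), 72.6% and 54.8% for miR-151-3p (G10A), and 51.9% and 35.8% for miR-30b-3p (U7G), each time siSrf1 before siSrf2. As background, the substituted base is in each of these 6 miRNAs that of the human form. The share was higher in the library labelled siSrf1 in all 6, which were chosen after their values were seen. Of the other 4 arms, the share was higher in the library labelled siSrf1 for miR-98-5p (36.9% and 27.3%), higher in siSrf2 for miR-5100 (27.03% and 41.3%) and miR-30d-3p (20.6% and 30.0%), and above 99.9% in both for miR-378d. As background, the C6A form of miR-378d has the bases of mouse miR-378a, whose hairpin was not among those searched, so these reads do not lack a mouse match. Whether the libraries hold human RNA was not tested beyond these counts. The other arms of the family are known to be the same in human and mouse over these bases, so their reads cannot be assigned to a species.

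**Figure D1:**
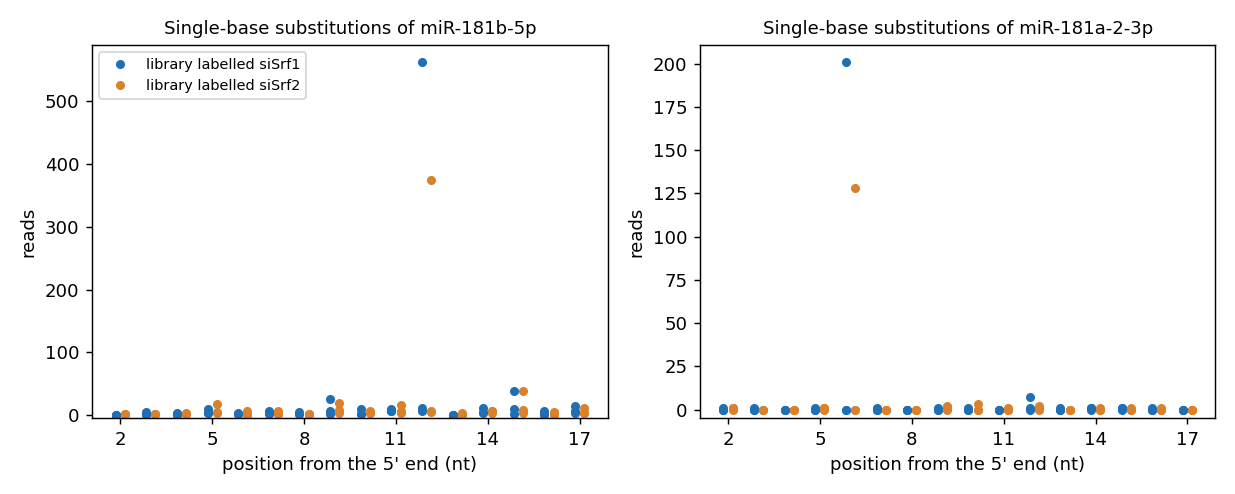
Reads (y axis) of each single-base substitution by its position in nt (x axis) in the first 18 nt of miR-181b-5p (left) and miR-181a-2-3p (right), 1 point per substitution and library. On the left only the substitution that makes miR-181d-5p stands out, with 562 and 375 reads, and on the right only C6U, with 201 and 128.

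The members covered more than 3 orders of magnitude in abundance, and the order was led by the 5p arms. miR-181a-5p had 6102 and 5858 reads in the libraries labelled siSrf1 and siSrf2, or 1179 and 1307 RPM (reads scaled to 1000000 miRNA reads), and placed 36 among all arms. miR-181b-5p had 2161 and 2760 reads, or 417 and 616 RPM, in place 49. miR-181d-5p followed in place 98 with 517 and 350 reads, or 99.9 and 78.1 RPM. Within each library the intervals of these 3 lie apart from each other and from every other member. Together they made up nearly all reads of the shared seed: among 5p reads of the family, miR-181a-5p held 69.2% and 65.0%, miR-181b-5p 24.5% and 30.6%, and miR-181d-5p 5.86% and 3.89%.

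The other members were far lower. miR-181a-1-3p had 141 and 112 reads (27.2 and 24.99 RPM), and the reference form of miR-181a-2-3p had 113 and 162 (21.8 and 36.2 RPM). Their intervals overlap in the library labelled siSrf1 (22.9 to 32.1 and 17.99 to 26.2 RPM) and lie apart in the library labelled siSrf2 (20.6 to 30.1 and 30.8 to 42.2 RPM), where miR-181a-2-3p is higher. miR-181c-3p had 65 and 46 reads (12.6 and 10.3 RPM) and miR-181c-5p 42 and 41 (8.11 and 9.15 RPM), and these neighbours overlap in both libraries. miR-181b-1-3p had 6 and 15 reads, miR-181d-3p 2 and 2, and miR-181b-2-3p 0 and 3, where 0 reads allow up to 3.69 by the exact Poisson limit.

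**Figure D2:**
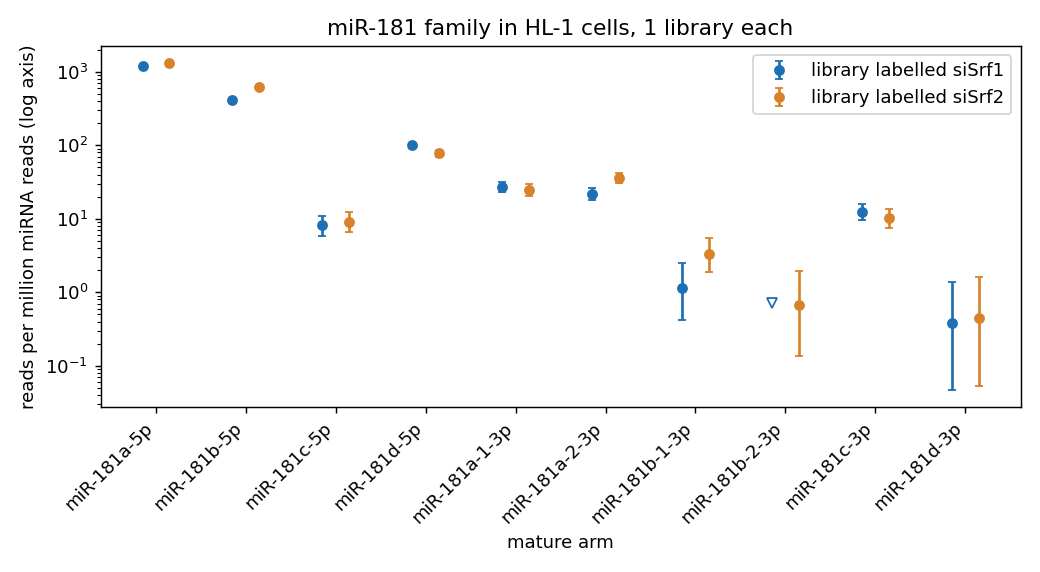
RPM (log y axis) of the 10 mature arms (x axis) in each library, with exact 95% Poisson intervals. The open triangle is the upper limit for miR-181b-2-3p, which had 0 reads in the library labelled siSrf1. miR-181a-5p, miR-181b-5p and miR-181d-5p stand above all other arms in both libraries.

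Reads of the rarer 5p members were compared with other single-base changes of the common ones. The form that turns miR-181b-5p into miR-181d-5p (C12U, first 18 nt) had 562 and 375 reads beside 2282 and 2838 of miR-181b-5p. The other 3 positions where miR-181b-5p has a C between 2 and 17 gave at most 4 C-to-U reads each in either library, and the other bases at position 12 at most 12 and 6. The highest of the other 47 substitutions was U15G, with 39 reads in both libraries. The same C12U change in miR-181a-5p, which makes no family member, had 8 and 12 reads beside 6452 and 6121. For miR-181c-5p, the deletion at position 11 of miR-181a-5p had 46 and 41 reads, while each of 9 other single-base deletions had at most 1 read in either library. Some substitutions of miR-181a-5p were more frequent than this deletion, with U15G at 123 and 102 reads and C10A at 56 and 56.

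The question the remaining comparison can address is how far the family differed between the libraries. Reads of the whole family were 0.177% of miRNA reads in the library labelled siSrf1 and 0.209% in the library labelled siSrf2. The log2 ratio (siSrf1 minus siSrf2) was -0.24 (-0.28 to -0.20) when scaled to the miRNA total, and 0.21, 0.16 and 0.14 with TMM factors, with median-of-ratios size factors and with a total that leaves out miR-1a-3p. The direction of the family as a whole therefore depends on the scaling. miR-1a-3p, the dominant miRNA of striated muscle, was 63.9% and 52.9% of miRNA reads, and over the 261 arms measured the median log2 ratio was -0.40 by miRNA total, 0.05 with TMM factors, 0.00 with size factors and -0.02 without miR-1a-3p. Read against that median, the 7 measured members had a median log2 ratio of -0.15, and 5 of the 7 lay above the median of all arms.

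The members did not move as 1 group. The 2-fold rule used here asks for a difference of at least 2-fold, an interval on 1 side of 0 and at least 50 reads. By miRNA total it was met by 0 of the 7 measured members. Beside them, 26.1% of all 261 arms met it with more reads in the library labelled siSrf2, and 0.0% with more in the library labelled siSrf1. The counts over all arms were 42 and 3 with TMM factors, 45 and 2 with size factors, and 46 and 2 without miR-1a-3p. Under these scalings the rule was also met by 0 members of the family. miR-181a-5p had a log2 ratio of -0.15 (-0.20 to -0.10) by miRNA total, was -0.03 (-0.09 to 0.02) with the total of all inserts, and turned positive with TMM factors (0.30), size factors (0.25) and without miR-1a-3p (0.23). miR-181b-5p had -0.56 (-0.64 to -0.48) and remained negative under every scaling (-0.12 with TMM factors). miR-181d-5p had 0.35 (0.16 to 0.55) and remained positive under every scaling (0.80 with TMM factors), while with exact matches only it was 0.20 (-0.02 to 0.43), an interval that includes 0. miR-181c-5p (-0.17, -0.83 to 0.48), miR-181c-3p (0.29, -0.28 to 0.87) and miR-181a-1-3p (0.12, -0.24 to 0.49) had intervals on both sides of 0 by miRNA total. With TMM factors, with size factors and without miR-1a-3p the intervals of 2 of them lay wholly above 0: miR-181a-1-3p was 0.57 (0.20 to 0.94), 0.52 (0.16 to 0.89) and 0.51 (0.14 to 0.88), and miR-181c-3p was 0.73 (0.17 to 1.31), 0.69 (0.12 to 1.27) and 0.67 (0.11 to 1.25). The sign for miR-181c-5p flips under the same 3 scalings (0.27, 0.23 and 0.21), and its intervals include 0 there too.

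**Figure D3:**
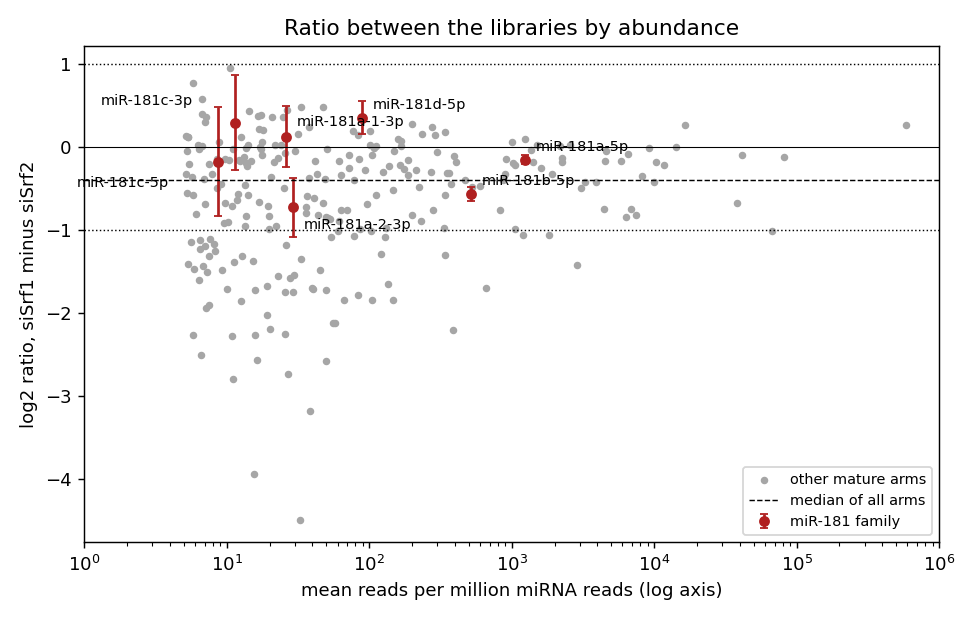
Log2 ratio of the libraries (y axis, siSrf1 minus siSrf2, scaled to miRNA reads) against mean abundance (log x axis) for 261 mature arms, with the 7 measured members in red and their exact 95% intervals. The dashed line is the median of all arms at -0.40 and dotted lines mark a 2-fold difference, which no member passes.

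The reference form of miR-181a-2-3p had a log2 ratio of -0.73 (-1.09 to -0.37), and this value rests on the scaling and on which form of the miRNA is counted. It was -0.28 (-0.64 to 0.07) with TMM factors, -0.33 (-0.69 to 0.03) with size factors and -0.34 (-0.70 to 0.01) without miR-1a-3p, intervals that include 0. Over the first 18 nt and by miRNA total, the reference form gave -0.78 (-1.17 to -0.40) and the C6U form 0.44 (0.12 to 0.77), in opposite directions. The signs were the same under the other scalings. The reference form was -0.34 (-0.72 to 0.04) with TMM factors, an interval that includes 0, and -0.38 (-0.77 to -0.0047) with size factors. The interval of the C6U form lay above 0 under every scaling. Both forms together gave -0.08 (-0.32 to 0.16) by miRNA total and 0.03 (-0.21 to 0.27) by the total of all inserts, intervals that include 0. They gave 0.36 (0.12 to 0.60) with TMM factors, 0.32 (0.08 to 0.56) with size factors and 0.30 (0.06 to 0.54) without miR-1a-3p.

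Shares within a library do not depend on the scaling, and they separated the closely related miR-181b and miR-181d. miR-181d-5p was 19.3% (17.8 to 20.9) of the reads of miR-181b-5p and miR-181d-5p together in siSrf1 and 11.3% (10.2 to 12.4) in siSrf2. miR-181b-5p was 26.2% (25.2 to 27.1) and 32.0% (31.0 to 33.0) of the reads of miR-181a-5p and miR-181b-5p together. In both cases the intervals lie apart, so the libraries differ by more than counting error. Every 5p arm compared here is one that human and mouse share, and the part of the substituted forms in these differences was not tested.

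The 3p arms give a view of the loci that the 5p arms cannot give. Of reference 3p reads of miR-181a, Mir181a-1 supplied 141 of 254 (55.5%, 49.2 to 61.7) in siSrf1 and 112 of 274 (40.9%, 35.0 to 47.0) in siSrf2. With 1 mismatch allowed, which admits the C6U form, the same share was 32.2% (27.9 to 36.5) and 29.8% (25.3 to 34.4), and the intervals overlap. Grouped by cluster, reference 3p reads of the family came from the pair on chromosome 1 in 44.95% and 37.4%. They came from the pair on chromosome 2 in 34.6% and 48.5%, and from the pair on chromosome 8 in 20.5% and 14.1%. Only the intervals of the chromosome 2 pair, which holds the substituted arm, lie apart (29.4 to 39.99 and 43.1 to 54.0). The C6U form of miR-181a-2-3p, with 201 and 128 reads over the first 18 nt, is left out of these shares. Counting it would raise the share of the chromosome 2 pair in both libraries, and those shares were not calculated. miR-181b 3p reads came from Mir181b-1 in 6 of 6 and 15 of 18.

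Arm use differed widely between members. The 3p share of the family was 3.57% (3.20 to 3.98) and 3.64% (3.27 to 4.04), which is within counting error between the libraries. It was 4.00% and 4.47% for miR-181a, 0.277% and 0.648% for miR-181b, and 0.385% and 0.568% for miR-181d. The shares of the family and of miR-181a leave out the C6U form of miR-181a-2-3p. With 1 mismatch allowed, which admits that form, the family share was 5.30% (4.88 to 5.75) and 4.63% (4.24 to 5.05), with intervals that overlap. The share of miR-181a was not calculated at that setting. miR-181c stood apart with 60.7% (50.8 to 70.0) and 52.9% (41.9 to 63.7) of its reads on the 3p arm. Over both libraries its less-read arm held 42.8% of reads, beside a median of 3.99% over 126 hairpins whose arms are counted for that hairpin alone, of which 12 reached 40%. Its neighbour Mir181d, 75 bp away, had 2 reads on the 3p arm in each library against 517 and 350 on the 5p arm.

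**Figure D4:**
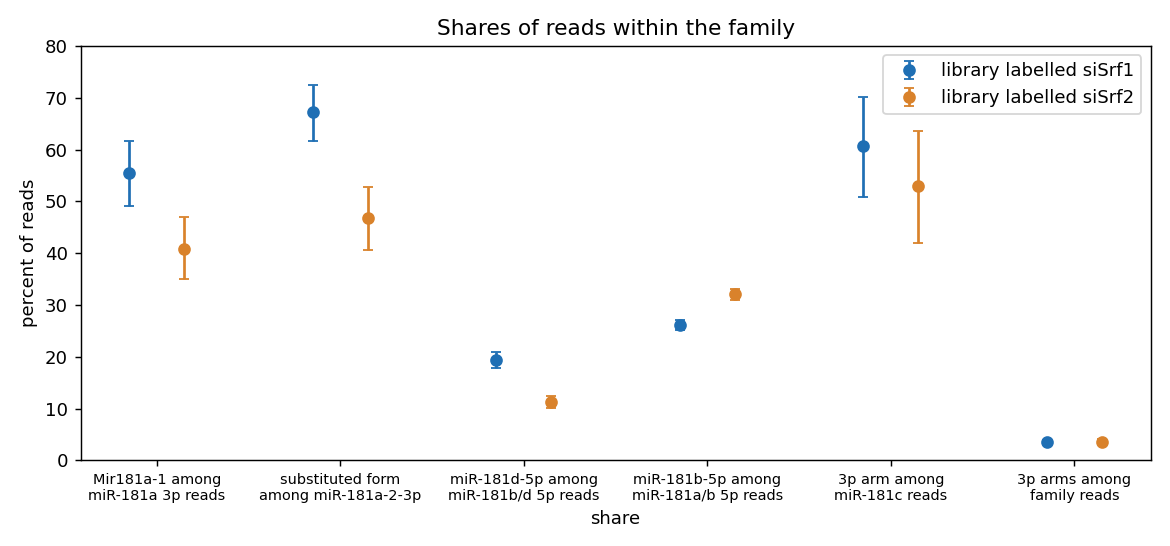
Shares of reads (y axis, percent) within the family for each library (x axis: the share named), with exact 95% Clopper-Pearson intervals. The intervals of the libraries lie apart for the first 4 shares and overlap for the 3p share of miR-181c and of the family. The C6U form of miR-181a-2-3p is counted only in the share of the substituted form.

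The 5′ end, which sets the seed, was precise in the main members. miR-181a-5p began at its main base in 99.2% of reads in both libraries and miR-181d-5p in 100% and 99.7%, beside a median of 99.0% over 91 arms with at least 1000 reads. miR-181b-5p was lower, at 96.8% (95.9 to 97.5) and 97.2% (96.5 to 97.8). Most of its other reads began 1 nt later (2.64% and 2.50%, beside medians of 0.52% and 0.47%), which moves the seed by 1 base. miR-181a-2-3p began 1 nt earlier in 14.2% (8.32 to 22.0) and 9.26% (5.28 to 14.8) of its reads.

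The 3′ end was far less precise, and here miR-181a-5p differed most between the libraries. miR-181a-5p and miR-181b-5p were the only arms of the 91 with 6 insert lengths that each held at least 5% of reads. Each length from 20 to 25 nt held 10.1% to 20.8% of miR-181a-5p reads in siSrf1, and 10.8% to 24.4% in siSrf2, while miR-181b-5p had 55.4% and 58.0% of its reads at 24 nt. Reads of 21 nt or shorter were 35.0% (33.8 to 36.2) of miR-181a-5p in siSrf1 and 25.6% (24.4 to 26.7) in siSrf2. Reads of 24 nt or longer were 29.7% (28.6 to 30.9) and 39.7% (38.4 to 40.9), and the mean length was 22.3 and 22.7 nt. The short share of miR-181b-5p was 16.4% (14.9 to 18.1) and 13.0% (11.8 to 14.4), with intervals apart, and that of miR-181d-5p was 7.74% (5.58 to 10.4) and 10.3% (7.31 to 13.95), with intervals that overlap.

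The difference in short reads of miR-181a-5p was the largest of the 91 arms, and miR-181b-5p took place 11. The median difference (siSrf1 minus siSrf2) was 0.89 percentage points, and it was above 0 in 60 of the 91 arms. A difference of at least 5 points toward the library labelled siSrf1, with intervals apart, was seen in 5.49% of the arms, which are 5 arms including miR-181a-5p. This measure was chosen after the lengths had been seen, so it is a description, and the part of the substituted forms in it was not tested.

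**Figure D5:**
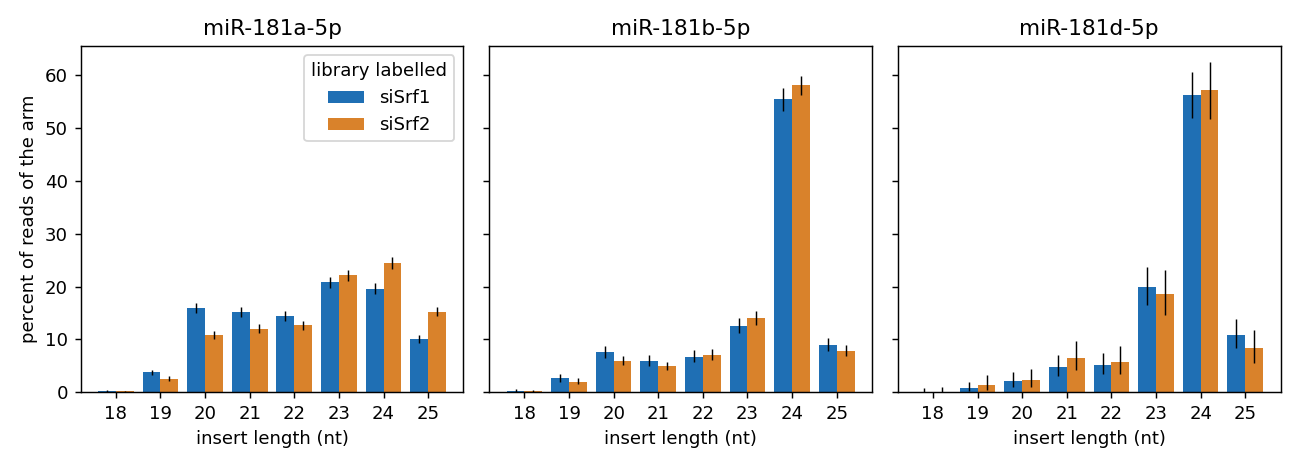
Percent of reads of each arm (y axis) by insert length in nt (x axis) for miR-181a-5p, miR-181b-5p and miR-181d-5p in each library, with exact 95% intervals. miR-181a-5p is spread from 20 to 25 nt and has more short reads in the library labelled siSrf1, while the other arms peak at 24 nt.

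Untemplated bases, which the hairpin does not encode, were added at the 3′ end of all measured members. For miR-181a-5p they ended 11.9% (11.1 to 12.7) and 9.53% (8.79 to 10.3) of reads. The shares were 15.8% (14.3 to 17.4) and 12.5% (11.3 to 13.8) for miR-181b-5p, and 23.98% (20.4 to 27.9) and 16.9% (13.1 to 21.2) for miR-181d-5p. These 2 arms are not measured alike. The 25-nt form ending in U was counted as templated for miR-181b-5p (115 and 124 reads) and as untemplated for miR-181d-5p (36 and 18 reads). The medians over the 91 arms were 15.8% and 16.0%. In the 3 most-read 5p arms a single A was the most frequent addition, with 7.36% and 5.70% for miR-181a-5p, 8.84% and 6.45% for miR-181b-5p, and 11.0% and 7.43% for miR-181d-5p, beside medians of 6.63% and 6.60%. The small 3p arm of miR-181c had a single A on 21 of 65 reads (32.3%, 21.2 to 45.1) and 12 of 46 (26.1%, 14.3 to 41.1). miR-181a-2-3p had a single A on 0 of 113 and 1 of 162 reads and a single U on 5 and 4. The intervals of the libraries lie apart for any untemplated base in miR-181a-5p and miR-181b-5p, with higher values in the library labelled siSrf1, and overlap for miR-181d-5p. With 12 nt of adapter those of miR-181b-5p overlap (14.3 to 17.7 and 11.5 to 14.3).

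A final U shows where templated and untemplated ends can be confused. The 25-nt form of miR-181a-5p that ends in U follows both hairpins and had 569 and 846 reads, 51.5% and 62.7% of the count of the exact 24-nt form. For miR-181b-5p the same U is encoded in Mir181b-2 only, and this form had 115 and 124 reads, 10.6% and 8.27% of the 24-nt form. The G encoded at that place in Mir181b-1 was seen in 2 and 0 reads. In miR-181d-5p, where the hairpin does not encode this U, the form still had 36 and 18 reads, 13.5% and 9.52% of the 24-nt form. The U-ended form of miR-181b-5p was thus no more frequent than an untemplated one in miR-181d-5p, and it cannot be used to assign reads to Mir181b-2.

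The sample was checked against miRNAs that mark cell types. Of 6 muscle miRNAs, 5 were measured, with 65.5% and 54.6% of all miRNA reads: miR-499-5p, encoded in a cardiac myosin gene, had 73294 and 63386 reads, and miR-206-3p, typical of skeletal muscle, had 26 and 17. miR-208b-3p had 829 and 864 reads, miR-208a-5p 194 and 306, and miR-133a-3p 6168.5 and 11118.5, where 0.5 of a read comes from inserts shared equally between arms. The blood cell list, where miR-181 is also known, had 3 of 5 miRNAs measured, with 444 and 431 reads in all (0.00858% and 0.00962%), the epithelial list 39 and 31 over 6, and the embryonic stem cell list 0 over 5. miR-122, a liver miRNA, had 37 and 60 reads and miR-126a-3p, of endothelium, 1574 and 1233. The fibroblast and smooth muscle list had 2.53% and 2.48% of reads over 4 miRNAs, within which miR-145-5p had 715 and 2856, and the neuron list 0.0342% and 0.0426%. Their part in the values of the family was not tested.

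Among 11 miRNAs known beside miR-181 in myoblast differentiation or in heart mitochondria, 9 were measured (miR-206-3p had under 50 reads and miR-378a was not analysed here), with a median log2 ratio of 0.0012, beside -0.40 for all arms. 5 of the 9 lay above 0, beside 53 of all 261 arms. These 5 were miR-214-3p (0.48), miR-1a-3p (0.27), miR-486-5p (0.19), miR-210-3p (0.15) and miR-499-5p (0.0012). By miRNA total miR-133a-3p alone passed the 2-fold rule, at -1.06, beside 26.1% of all arms that passed it in that direction. All ratios in this paragraph are by miRNA total, and those with other scalings are not given for this list. miR-29a-3p (-0.17), miR-26a-5p (-0.17) and miR-27b-3p (-0.13) had values close to that of miR-181a-5p. Of 159 arms with at least 200 reads, those nearest to it in ratio were miR-33-5p (-0.15), miR-125a-5p (-0.14) and miR-148a-3p (-0.16), over 2 libraries only. Those nearest to it in abundance were miR-29c-3p at 0.09, miR-22-3p at -0.03 and miR-744-5p at -1.06.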

How the data were processed

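The authors deposited, per the file headers, the count of reads for each distinct 36 nt sequence of each library, unnormalized and with the adapter. Per the labels' protocols, an Illumina small RNA kit and a Genome Analyzer were used. The authors' aligner and build are not given in sources used here. The libraries held 14911499 (siSrf1) and 14518157 (siSrf2) reads. The adapter was found in the reads and trimmed (first 8 nt, or at least 4 nt at the end), which left 7748874 and 7013026 inserts of 18 to 25 nt. Of these 66.8% and 63.9% were assigned to an arm of a GENCODE vM1 hairpin (NCBIM37), matched exactly or with up to 2 untemplated 3′ bases. An arm was taken by a start within 2 nt of its most frequent insert, and inserts that fitted several arms were shared equally. Log2 ratios use a pseudocount of 0.5 reads. Intervals are exact (Poisson, Clopper-Pearson, or binomial given the sum), at 95%. With 1 library per group no test was made.

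Every arm of the family is named, and beside them the 3 arms nearest in ratio and the 3 nearest in abundance to the most-read member, and muscle markers. Other miRNAs named were chosen after their values were seen. The members and lists were chosen with earlier results of these data known. Alternatives were TMM factors (edgeR 4.0.16), size factors (DESeq2 1.42.0, R 4.3.3), other totals, pseudocount 5, a minimum of 10 reads, exact matches, 1 mismatch, 20 to 24 nt, 12 nt of adapter, sequences seen once left out, and ambiguous inserts left out. A limit on the 3′ end and inserts of 16 to 28 nt were added after seeing the data. The steps were tested on simulated reads of 261 arms, where 98.3% of 60 arms changed 4-fold were called and 0.0% of 201 unchanged. The simulation gave unchanged arms equal expected counts in both libraries, capped the most-read arms and added counting error only. It therefore checks the counting steps and cannot show how often the rule errs with the scaling difference of these libraries. Python 3.11.15, scipy 1.17.1, pandas 2.3.3, numpy 2.4.6 and matplotlib 3.10.9 were used.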

Additional observations from a re-analysis of the deposited data

Results flagged for a closer look

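Inserts of 26 to 28 nt lie outside the length rule and enter no comparison. The family had 52 of them in the library labelled siSrf1 and 87 in the library labelled siSrf2, above the 3.69 reads that a count of 0 allows by the exact Poisson limit. They came from miR-181b-5p (35 and 51), miR-181a-5p (15 and 31) and miR-181d-5p (2 and 5), and from no other arm.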

How the results depend on the processing

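No paired analysis was possible because siSrf1 and siSrf2 are single libraries. The log2 ratio of the family (-0.24) was 0.21 with TMM factors, 0.16 with size factors, 0.14 without miR-1a-3p, -0.12 with the total of all inserts, -0.31 with exact matches only and -0.33 with an end within 3 nt of the main end. With 1 mismatch the share of Mir181a-1 among miR-181a 3p reads was 32.2% and 29.8%, since that setting admits the C6U form of miR-181a-2-3p, and the 3p share of the family was 5.30% and 4.63%. That 3p share was 3.26% in the library labelled siSrf2 without sequences seen once, and 4.26% and 4.07% with the end limit. With a minimum of 10 reads, 1 arm of the family met the 2-fold rule, miR-181b-1-3p at -1.46 (-3.18 to -0.08) on 21 reads. At that setting 104 of all 375 arms met the rule with more reads in the library labelled siSrf2, and 1 with more in siSrf1. Apart from the settings named, the cause of these moves was not tested. The scalings of the separate forms of miR-181a-2-3p were added after seeing the data. For single members, 77 of 98 alternative log2 ratios lay within the interval reported. This count includes settings that hardly move a ratio, such as a minimum of 10 reads, so it does not measure stability. Most values outside the interval came from the other scalings. With 0 to 15 reads a library, depth limits miR-181b-1-3p, miR-181b-2-3p and miR-181d-3p to levels only.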
